A study of Mus musculus with 2 samples.

Results

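The subject of this report is a set of Sertoli barcodes in a whole testis library of a mouse lacking RAD21L (RAD21L KO, Rad21l-/-), picked out by their UMIs of Wfdc18, Hrk, Rasl10a and Tesc. A UMI (unique molecular identifier) stands for 1 captured transcript. Barcodes were taken from the KO library where they held at least 500 detected genes and 2000 UMIs, where Clu, Inha, Sox9, Rhox8, Defb36 and Wfdc10 made up at least 0.6% of UMIs, where Cyp17a1, Insl3, Hsd3b1 and Cyp11a1 made up under 0.3%, and where Wfdc18, Hrk, Rasl10a and Tesc together had at least 3 UMIs. Of the 7118 KO barcodes, 4225 passed the limits on depth, 1256 also passed the Sertoli gate, and 180 of these had at least 3 UMIs of the 4 genes. These 180 members are 14.3% (95% interval 12.4 to 16.4) of the gated barcodes and 2.53% of the library. The other 1076 gated barcodes, with under 3 UMIs of the 4 genes, are the comparison.

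The series holds 1 such library from a RAD21L KO mouse and 1 from a wild-type mouse (WT, Rad21l+/+), both of 55 days, made by droplet capture from disaggregated testis. The KO library summed to 28001992 UMIs and the WT library to 33096309. With 1 library per genotype there are no replicates of a genotype, and barcodes are not replicates, so no test was run and each difference is one between sets of barcodes of 1 library. Ranges in parentheses are 95% intervals, exact Poisson for levels in CPM (UMIs per 1000000 UMIs of the set), Clopper-Pearson for shares and conditional binomial for ratios, and cover counting error only. The 4 genes and the gate chose the members, so their values are a description, and every other gene of the same barcodes is given in the same way. A smaller share of strongly expressing cells and less RNA in each cannot be told apart from the sums, so the number of barcodes with a UMI is given beside them.

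Sertoli cells are the somatic cells of the seminiferous tubule that hold and feed germ cells, answer to follicle-stimulating hormone and testosterone, and seal the tubule with the blood-testis barrier. RAD21L is a cohesin subunit of meiosis, and male mice without it are sterile with an arrest of spermatocytes. Hrk (Harakiri) encodes a BH3-only protein of the BCL2 family that binds and inhibits survival members of that family, and is best known from neurons deprived of growth factor. Wfdc18 encodes a small secreted protein with a WAP domain, described in mouse mammary epithelium. Tesc encodes tescalcin, an EF-hand calcium-binding protein first found in the developing mouse testis, and Rasl10a a small Ras-like GTPase. Nes encodes nestin, an intermediate filament protein, and Gadd45a a growth arrest and DNA damage protein under p53.

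The promoters of 3 of the genes that stand highest in these barcodes are shown because they share 8 letters, which were noticed after the sequences had been read. Each is the 250 bases before an annotated start in RefSeq on GRCm38.p6, 5′ to 3′, with TGATGTAA in capitals. Creb5, which encodes a bZIP transcription factor that binds cAMP response elements, has 2 annotated starts with the letters. The sequence upstream of the first one is given.
Wfdc18 (chr11:83708754-83709003, + strand): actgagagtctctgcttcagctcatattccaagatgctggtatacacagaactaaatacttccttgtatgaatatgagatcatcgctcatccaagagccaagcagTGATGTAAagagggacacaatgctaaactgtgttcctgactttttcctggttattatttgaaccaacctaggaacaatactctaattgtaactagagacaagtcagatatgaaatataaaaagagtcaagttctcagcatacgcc
Hrk (chr5:118169514-118169763, + strand): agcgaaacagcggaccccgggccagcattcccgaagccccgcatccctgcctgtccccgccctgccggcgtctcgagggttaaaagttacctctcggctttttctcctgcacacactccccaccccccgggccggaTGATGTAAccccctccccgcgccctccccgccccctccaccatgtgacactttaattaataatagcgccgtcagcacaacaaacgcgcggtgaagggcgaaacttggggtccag
Creb5 (chr6:53287053-53287302, + strand): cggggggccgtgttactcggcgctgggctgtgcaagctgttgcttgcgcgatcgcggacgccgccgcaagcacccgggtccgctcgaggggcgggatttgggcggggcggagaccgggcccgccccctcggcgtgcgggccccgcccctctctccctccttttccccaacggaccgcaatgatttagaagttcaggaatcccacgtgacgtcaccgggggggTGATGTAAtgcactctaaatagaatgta
The letters begin 145 bases before the start of Wfdc18, 114 bases before that of Hrk and 28 bases before that of Creb5. Searched on both strands over 250 bases before to 50 after each start, TGATGTAA was present for 335 of 27025 genes (1.24%), for 2 of the 4 rule genes and for 1 of the 13 matched among 17 genes named below as highest, which is Creb5. TGACGTCA was present for 2.03% of genes and among these named genes for Creb5, TGANTCA for 8.97% and for Ltbp3 and Creb5, and GGAATG for 16.6% and for Hrk, Tesc, Creb5 and Tmod1. None of the 4 motifs contains another. Such a match is a run of letters and not a shown binding site.

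The 4 genes split the members unevenly. Their joint UMIs had a median of 4 and a maximum of 96 among members, 59 members had exactly 3 UMIs and 93 barcodes just outside the rule had exactly 2. No gated barcode had exactly 11 UMIs, 1 had 10 and 8 had 12. The members were therefore also described as 48 barcodes with at least 12 UMIs (high) and 132 with 3 to 11 (low), a division made after the counts were seen. High barcodes had a median of 23 UMIs of the 4 genes and low ones of 4. No KO barcode of at least 2000 UMIs outside the gate had more than 8.

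**Figure D1:**
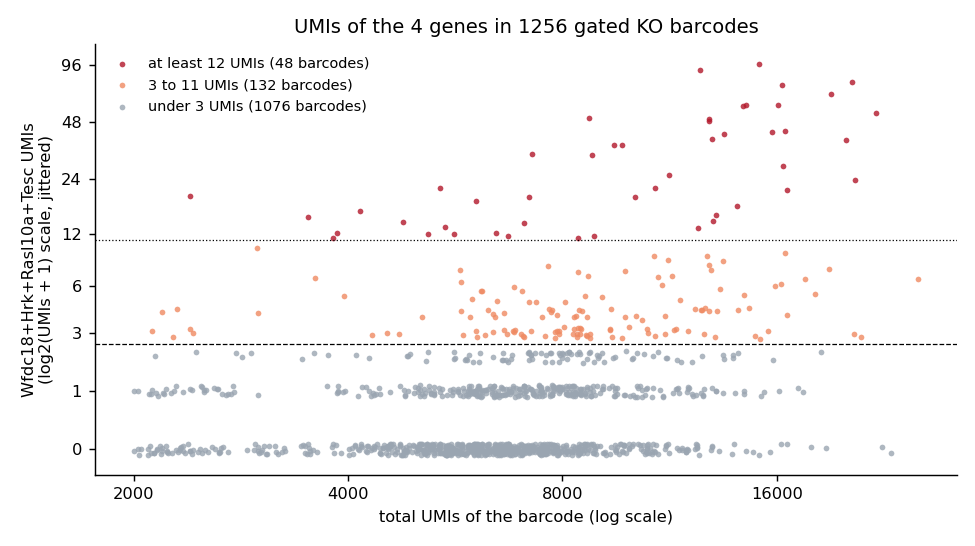
UMIs of Wfdc18, Hrk, Rasl10a and Tesc together (vertical axis, log2(UMIs + 1) scale with jitter) against the total UMIs of each of the 1256 gated KO barcodes (horizontal axis, log scale). Each point is a barcode, the dashed line marks the limit of 3 UMIs and the dotted line that of 12 UMIs. The 48 barcodes above the dotted line reach 96 UMIs and lie at depths from 2399 to 22052 UMIs.

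The members were the deeper of the gated barcodes. Median total UMIs were 11036.5 in high, 8423.5 in low and 6558.5 in the other gated barcodes. After each barcode was thinned to 2000 UMIs, 41 of 48 high and 15 of 132 low barcodes still had at least 3 UMIs of the 4 genes, a description only, since the rule used these UMIs. As a share of UMIs, the 4 genes had a median of 0.283% in high and 0.044% in low barcodes. Thinned barcodes held similar numbers of genes, with medians of 1370 in high, 1423 in low and 1406 in the others. The share of UMIs from mitochondrial ribosomal and transfer RNAs had a median of 0.933% in high, 1.63% in low and 3.15% in the other barcodes, and its part in the differences below was not tested. Scrublet marked 0 high, 2 low and 41 of the other barcodes as doublets, which were kept in the values given here. The libraries shared 14 barcode sequences, none of which was a member.

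Wfdc18 and Hrk, the genes the set is named for, were almost all in the high barcodes. Wfdc18 had 1369 CPM (1271 to 1472) in high, 57.2 (44.6 to 72.2) in low and 5.43 (3.88 to 7.40) in the other barcodes, with a UMI in 46 of 48 high, 39 of 132 low and 40 of 1076 other barcodes. Hrk had 299 CPM (254 to 349) in high, 13.9 (8.09 to 22.2) in low and 0.543 (0.148 to 1.39) in the others, with a UMI in 38 high, 9 low and 4 other barcodes. The 48 high barcodes held 86.9% of the gated Wfdc18 UMIs and 88.3% of those of Hrk. Of all UMIs of these genes in the KO library, they held 67.2% for Wfdc18 and 76.4% for Hrk. Thinned to 2000 UMIs, Wfdc18 was still seen in 36 of 48 high and 18 of 132 low barcodes. A Leydig gate of the same library, cells that should lack these genes, had 4.49 CPM of Wfdc18 and 0.408 of Hrk at a median of 7479 UMIs, with a UMI of Wfdc18 in 3.24% and of Hrk in 0.309% of its barcodes. All 2969 KO barcodes that passed the limits on depth but not the Sertoli gate, those of the Leydig gate included, at a median of 4729 UMIs, had a UMI of Wfdc18 in 2.86% and of Hrk in 0.775%. The shares in the other gated barcodes, 3.72% and 0.372%, were held down by the rule itself, so they are not set against these.

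Tesc was the gene that made most low barcodes members. It had 876 CPM (799 to 960) in high, 341 (309 to 375) in low and 44.5 (39.9 to 49.6) in the others, and gave 73.3% of the rule's UMIs in low barcodes against 30.0% in high. It was at 68.8 CPM in the Leydig gate, where 34.4% of barcodes had a UMI and single barcodes held up to 7. In all 2969 barcodes outside the Sertoli gate, again with those of the Leydig gate, it was at 33.4 CPM with a UMI in 12.3%, so the Leydig gate is not taken as a level of free RNA for Tesc. A UMI was found in 25.7% of the other gated barcodes. Thinned to 2000 UMIs, Tesc was seen in 35 of 48 high and 67 of 132 low barcodes. Of the 132 low barcodes, 61 had UMIs of only 1 of the 4 genes and 2 had all 4, while 35 of the 48 high barcodes had all 4. Rasl10a had 376 CPM in high, 53.1 in low and 18.2 in the others. The label, positive for Hrk and Wfdc18, thus describes the high barcodes and does not describe most low ones, which are called by the rule here.

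Nes and Gadd45a, which the rule did not count, were high in the same barcodes. Both had been listed beforehand as markers of this set, so their values are a description and not separate support. Nes had 369 CPM (319 to 424) in high, 21.2 (13.9 to 31.1) in low and 9.64 (7.53 to 12.2) in the others, with a UMI in 42 of 48 high, 15 of 132 low and 36 of 1076 other barcodes. Gadd45a had 545 CPM (484 to 612) in high, 69.4 (55.4 to 85.8) in low and 28.4 (24.7 to 32.5) in the others. It was at 104 CPM in the Leydig gate. In the 2969 KO barcodes outside the Sertoli gate, Nes was at 21.5 CPM with a UMI in 9.13%. Gadd45a was at 57.0 CPM there, with a UMI in 20.4%. In the order of thinned Spearman likeness to the joint UMIs of the 4 genes over 1256 gated barcodes, out of 5240 genes, those near the top included Tppp3 (0.29), Ccn1 (0.27), Cidea (0.25) and Anxa5 (0.24). These are weak correlations in sparse counts over barcodes of 1 library and are given as an order only.

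In WT, 44 barcodes passed the gate, of which 1 (2.27%, 0.0575 to 12.02) had at least 3 UMIs of the 4 genes and 0 had at least 12, with an upper Clopper-Pearson bound of 8.04%. A difference from the 3.82% (2.83 to 5.04) of high barcodes among gated KO barcodes was not detectable with 44 gated WT barcodes of 1 library. The WT barcodes held no UMI of Wfdc18 or Nes and 1 of Hrk. Rad21l itself had 1 UMI in high, 1 in low and 2 in the other KO barcodes, and 0 in the gated WT barcodes, so it cannot be used to check the genotype here.

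When the gated KO barcodes were clustered again without the 4 genes, the high barcodes came together. One cluster of 57 held 46 of the 48 high barcodes, 10 low ones and 1 of the 1076 others. The same 57-barcode size and make-up were found at a finer resolution and with another seed, while at a coarser one they lay in a cluster of 93 with 34 of the others. Of the low barcodes, 40 sat in a cluster of 187 and 41 in one of 140, both made mostly of others. The 10 low barcodes in the cluster of 57 had a median of 4240.5 UMIs and Hrk and Wfdc18 levels of 294 and 272 CPM, while the 122 outside had 3.39 and 49.1 CPM. Creb5 was at 453 CPM in these 10 and 15.2 CPM in the 122.

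**Figure D2:**
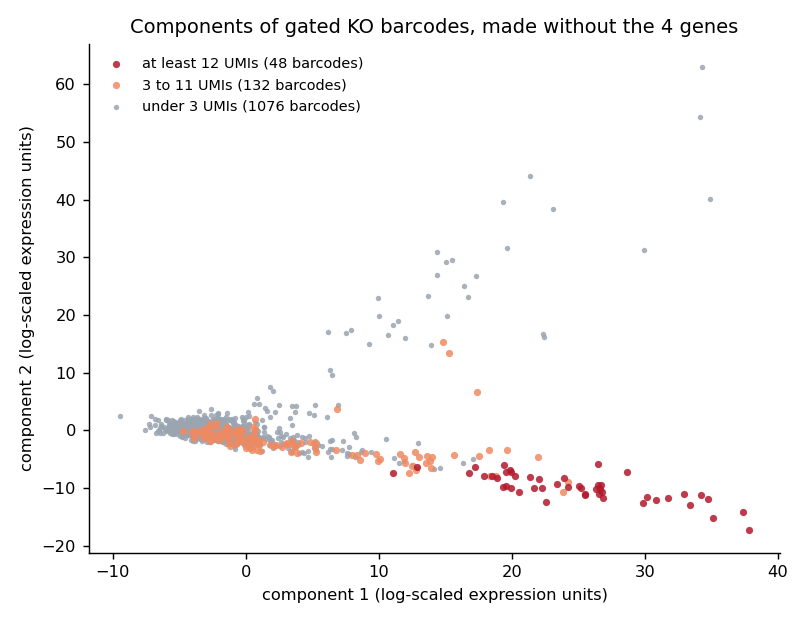
First and second principal component of log-scaled expression in the 1256 gated KO barcodes, computed without the 4 genes (both axes in log-scaled expression units). Points are barcodes coloured by their UMIs of the 4 genes. The barcodes with at least 12 UMIs run out along component 1, most of those with 3 to 11 UMIs lie among the barcodes with under 3, and a separate spread, mostly of barcodes with under 3 UMIs, runs up component 2.

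The genes with the highest ratios in members were largely those with the highest ratios in high barcodes. High barcodes are part of the members and were set against the same others, so much of this overlap is built in. Of 9107 genes with at least 100 UMIs over both sets, 2.58% were at least 2-fold higher in members and 1.04% at least 2-fold lower, after an allowance for free RNA of 10% of the gene's level in the library. In the high barcodes alone the shares were 6.35% higher and 13.8% lower of 8714 genes, and in the low barcodes 0.921% and 0.618% of 8905. The sums behind them were 531766 UMIs in high, 1224566 in low and 7363697 in the others. A gene near the limit of 100 UMIs has few UMIs in the smallest sum, so counting error alone can take more genes past 2-fold there. The shares of high and low barcodes are therefore not directly comparable. Set directly against low barcodes, high barcodes had 5.03% of 4092 genes at least 2-fold higher and 8.46% lower. The median log2 ratio against the others was -0.05 for members, -0.18 for high and -0.00 for low barcodes. The 15 genes with the highest ratio in members were Clic5, Tgfb2, Gxylt2, Fam171b, Cryab, Ephb6, Cxadr, Phldb2, Lims2, Prxl2b, Ltbp3, Serpine2, Creb5, Tmod1 and Mxra8. Nes and S100a1 joined 13 of them among the first 15 in high barcodes.

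Clic5, of the intracellular chloride channel family, had 165 CPM (133 to 204) in high, 9.80 (5.06 to 17.1) in low and 0.815 (0.299 to 1.77) in the others. Tgfb2, a TGF-beta ligand, had 143 CPM (113 to 179) in high, 4.08 (1.33 to 9.53) in low and 0.679 (0.220 to 1.58) in the others. Both were seen in most high barcodes, Clic5 in 41 of 48 and Tgfb2 in 31. Creb5 had 314 CPM (268 to 365) in high, 31.0 (22 to 42.6) in low and 5.84 (4.23 to 7.87) in the others, with a UMI in 40 of 48 high barcodes. Ltbp3, which holds latent TGF-beta in the matrix, had 135 CPM in high, 15.5 in low and 2.44 in the others, and Serpine2, a protease inhibitor of the plasminogen system, 182 CPM in high, 9.80 in low and 2.99 in the others. The small heat shock protein gene Cryab was at 150 CPM in high, 16.3 in low and 1.90 in the others, and Ephb6, an Eph receptor without kinase activity, at 115 CPM in high, 5.72 in low and 1.36 in the others. Cxadr, a cell adhesion protein of tight junctions, was at 134 CPM in high, 11.4 in low and 1.77 in the others. Phldb2, S100a1 and Mxra8 were also at 101, 121 and 65.7 CPM in the Leydig gate.

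**Figure D3:**
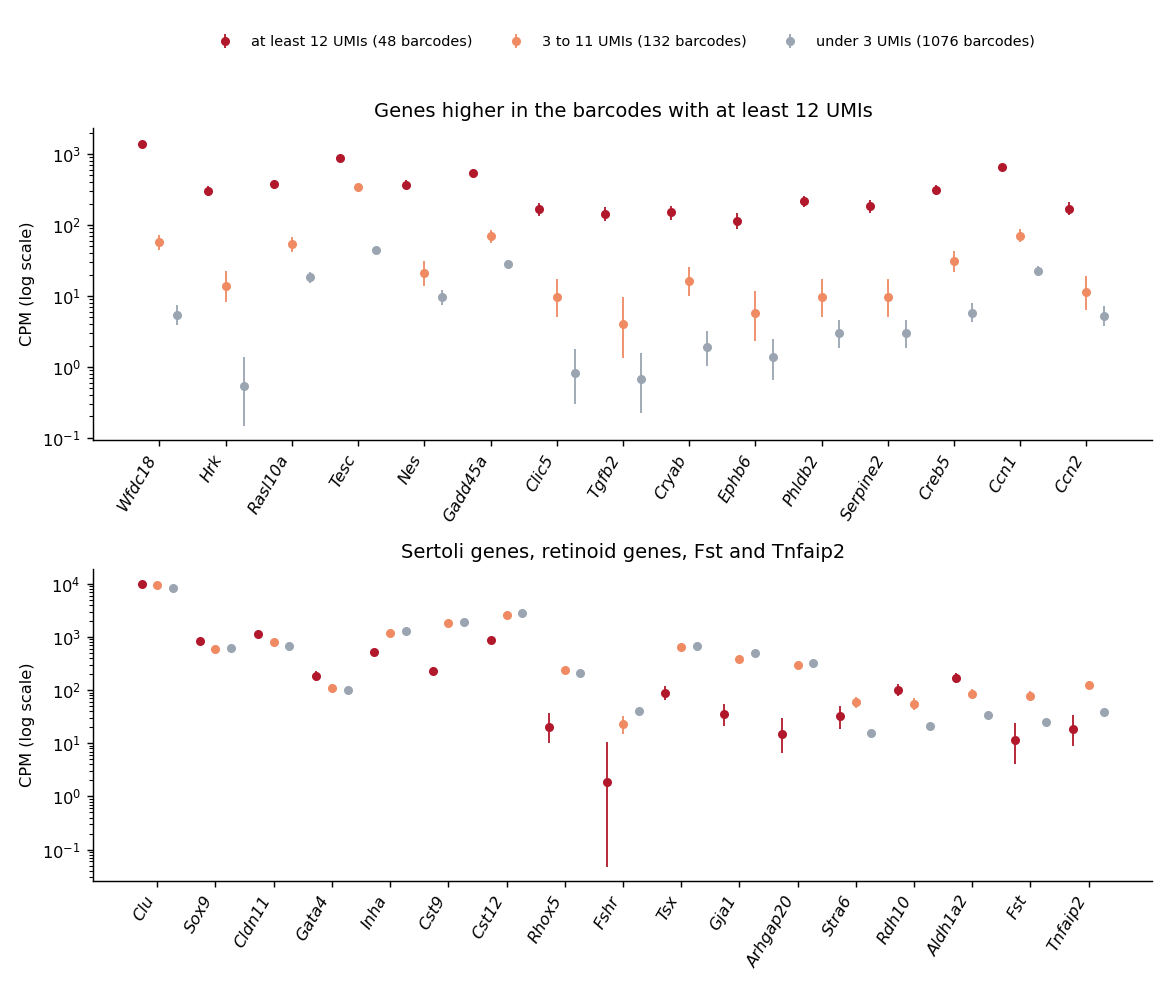
Level in CPM (log scale) of genes named in the text in KO barcodes with at least 12, 3 to 11 and under 3 UMIs of the 4 genes. Points are levels from summed UMIs and bars are exact Poisson 95% intervals, which cover counting error only. Wfdc18 and Hrk drop steeply with each step down in the rule's UMIs, Cst9 and Gja1 are low in the first set alone of the 3, and Fst and Tnfaip2 are highest in the middle set.

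Genes of the Hippo pathway, in which YAP and TAZ drive targets such as Ccn1 and Ccn2, had the highest median in high barcodes among the lists with at least 5 genes of enough UMIs. Of 14 such genes 7 were at least 2-fold higher and 0 lower, against 6.35% higher and 13.8% lower of all genes, with a median log2 ratio of 1.00 against -0.18 over all genes. Ccn1 had 647 CPM (580 to 719) in high, 71.0 (56.9 to 87.6) in low and 22.7 (19.4 to 26.4) in the others. Ccn2 had 169 CPM in high, 11.4 in low and 5.30 in the others, and Wwtr1, which encodes TAZ, 150 in high, 44.9 in low and 18.6 in the others. Both Ccn1 and Ccn2 encode matrix-associated signalling proteins. In the low barcodes 2 of 13 were higher, Ccn1 and Wwtr1, and 1 lower, Amotl1, against 0.921% and 0.618% of all genes.

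Of 19 cytoskeletal genes 5 were higher in high barcodes and 1 lower, against 6.35% and 13.8% of all genes, and the lists in this paragraph are read against the same shares. Those higher were Nes, Lmna (122 CPM in high, 11.4 in low, 7.47 in the others), Tpm1, Tpm4 (231 in high, 57.2 in low and 14.9 in the others) and Cnn3. Of 20 p53 targets 5 were higher, Cdkn1a, Gadd45a, Phlda3, Btg2 and Ccnd1, and 3 were lower, Sesn2, Polk and Tigar, the lower ones near the 13.8% of all genes, with a median of 0.01. Nes and Gadd45a, counted in these lists, are markers of the set already described above. Cdkn1a, the cell cycle inhibitor p21, had 181 CPM in high, 126 in low and 59.2 in the others. Mdm2, another p53 target, had 62.1 CPM (42.7 to 87.2) in high, 50.6 (38.8 to 64.9) in low and 69.8 (63.9 to 76.1) in the others. Of 19 BCL2 family and apoptosis genes besides Hrk, Bok was higher (226 CPM in high, 93.9 in low, 49.2 in the others) and Bcl2l11 (33.8 in high, 102 in low and 121 in the others) and Birc3 (9.40 in high, 23.7 in low and 21.9 in the others) were lower. These shares were at or below the 6.35% and 13.8% of all genes, so the counts show nothing about the family as a whole. Bcl2l11 encodes BIM, another BH3-only protein. Of 10 cell cycle genes 4 were higher, Mcm6, Ccnd1, Ccnd2 and Cdk6, and 2 lower, Cdk1 and Mcm3. Their median log2 ratio was -0.41, against -0.18 over all genes, so the list as a whole was not higher. Ccnd1 and Ccnd2, cyclins of G1, had 162 and 229 CPM in high barcodes, against 9.37 and 8.96 in the others.

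Of 19 immediate early genes, transcribed within minutes of a stimulus, 6 were higher in high barcodes and 0 lower, against 6.35% and 13.8% of all genes, with a median log2 ratio of 0.80 against -0.18. These were Fos (1141 CPM in high, 438 in low, 428 in the others), Fosl2, Jund, Ier3, Atf3 (549 in high, 139 in low and 126 in the others) and Btg2, while Jun had 703 CPM in high, 586 in low and 621 in the others. In the Leydig gate Fos was at 2291 and Atf3 at 241 CPM. None of the 19 was at least 2-fold higher or lower in low barcodes, where 0.921% and 0.618% of all genes were.

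Part of the genes that mark Sertoli cells were lower in high barcodes. None of 30 further Sertoli genes was at least 2-fold higher and 11 were lower, against 6.35% and 13.8% of all genes, with a median log2 ratio of -0.84 against -0.18 over all genes. Cst9, a cystatin made by Sertoli cells, had 233 CPM (194 to 278) in high, 1810 (1735 to 1887) in low and 1934 (1902 to 1966) in the others. Rhox5, an androgen-regulated homeobox gene of Sertoli cells, had 20.7 CPM (10.3 to 37.0) in high, 244 (217 to 273) in low and 213 (203 to 224) in the others. Tsx had 90.3 CPM in high, 661 in low and 679 in the others, and Fshr, the receptor of follicle-stimulating hormone, 1 UMI in high, 28 in low and 294 in the others. Dmrt1, Gata1, Shbg, Serpina5, Cst12, Drd4 and Fabp5 were the other lower ones. Amh had 2 UMIs in high, 14 in low and 85 in the others.

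Other Sertoli genes were kept or higher in the same 48 barcodes. Cldn11, a claudin of the barrier, had 1121 CPM (1033 to 1214) in high, 798 (749 to 849) in low and 685 (667 to 705) in the others. Gata4 had 186 CPM in high, 111 in low and 101 in the others, Kitl, the ligand of germ cell KIT, 451 in high, 295 in low and 342 in the others, and Wt1 267 in high, 333 in low and 311 in the others. Among the gate genes, which the rule used, Clu had 10142 CPM in high, 9400 in low and 8386 in the others and Sox9 859 in high, 599 in low and 623 in the others, while Inha had 530 in high, 1186 in low and 1291 in the others and Wfdc10 179 in high, 733 in low and 965 in the others. The median share of UMIs from the 6 gate genes was 1.27% in high, 1.40% in low and 1.32% in the others.

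Of 12 WAP, defensin and cystatin genes other than Wfdc18, 7 were lower in high barcodes and 0 higher, against 13.8% lower and 6.35% higher of all genes, with a median log2 ratio of -1.58. Among the lower ones were Wfdc10, which the gate used, and Cst9 and Cst12, already counted among the Sertoli genes above. The count is therefore partly a repeat and not a separate result. Of 18 junction genes 2 were higher, among them Cldn3, and Ocln, Gja1 and Gja6 were lower, which is near the same shares and not a result about junction genes as a group. Gja1, connexin 43, had 35.7 CPM (21.5 to 55.8) in high, 389 (355 to 425) in low and 505 (489 to 522) in the others, and 218 in the Leydig gate. Of 19 basement membrane genes 5 were higher and 6 lower, against 6.35% and 13.8% of all genes. Col4a5 had 63.9 CPM in high, 27.8 in low and 9.23 in the others, and Col4a4 13.2 in high, 53.9 in low and 51.2 in the others. The inhibin subunit gene Inhbb had 73.3 CPM in high, 220 in low and 253 in the others, and the ligand gene Tgfb3 252 in high, 67.8 in low and 64.9 in the others.

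The genes lowest in high barcodes by ratio began with Arhgap20, a GTPase-activating protein, at 15 CPM (6.50 to 29.6) in high, 292 (262 to 323) in low and 323 (310 to 336) in the others. Corin, a serine protease, had 2 UMIs in high, 76 in low and 851 in the others, and Gas6, a ligand of TAM receptors in dead cell uptake, 4 in high, 62 in low and 750 in the others. The phosphodiesterase genes Pde4d, Pde4b and Pde10a had 22.6, 9.40 and 9.40 CPM in high, against 213, 81.8 and 108 in the others. The genes lowest in the members together, which the ranking rule names, were scarce throughout. Ptk2b had 10 UMIs in members and 207 in the others, Frmpd1 14 in members and 242 in the others, and BC065397, Inhba, Nexmif, Mllt3, Sned1, Map2k6, Negr1, Insyn2a, Cdon, Frmd4b, Chn2, Septin12 and Meiosin had 1 to 5 UMIs in members.

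**Figure D4:**
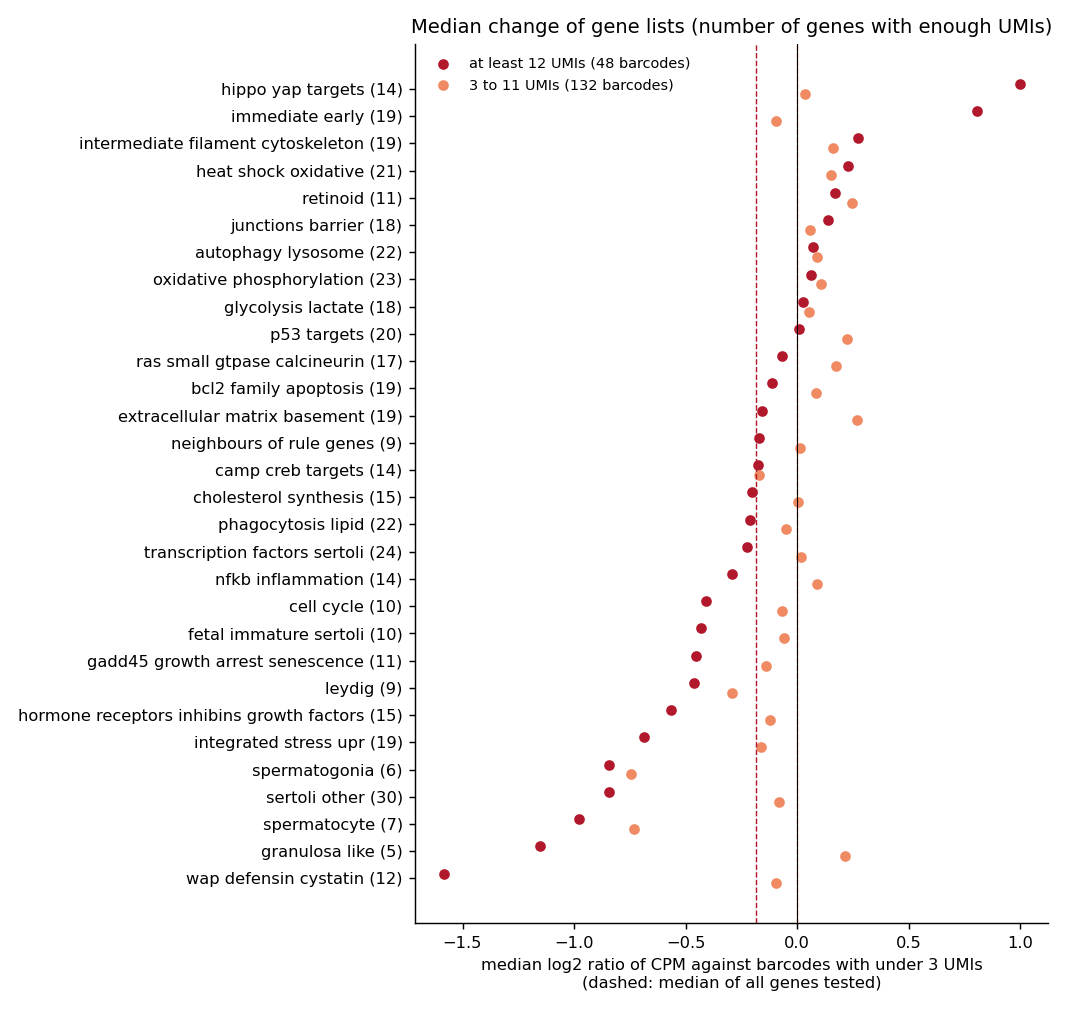
Median log2 ratio of CPM (horizontal axis) of gene lists with at least 5 genes holding enough UMIs, in barcodes with at least 12 UMIs and with 3 to 11 UMIs of the 4 genes, each against barcodes with under 3. The number of genes behind each median of the first set is in brackets, and dashed lines mark the medians over all genes with enough UMIs, -0.18 for the first set. The list of Hippo pathway targets is at the top with 1.00 and that of WAP, defensin and cystatin genes at the bottom with -1.58. The bottom list includes the gate gene Wfdc10.

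Several retinoid genes were higher in both high and low barcodes. Of 11 with enough UMIs in high barcodes 4 were higher and 2 lower, against 6.35% and 13.8% of all genes, and of 13 in low barcodes 5 were higher and 0 lower, against 0.921% and 0.618%. Rdh10 and Aldh1a2, which make retinal and retinoic acid, had 102 and 171 CPM in high, 55.5 and 85.7 in low and 21.5 and 34.4 in the others. Stra6, the receptor for retinol carried by its plasma protein, was highest in low barcodes, at 32.0 CPM (18.6 to 51.2) in high, 58.8 (46.0 to 74.0) in low and 15.3 (12.6 to 18.4) in the others. Dhrs3, which turns retinal back to retinol, had 2 UMIs in high, 32 in low and 115 in the others.

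A few genes stood out in low barcodes and not in high ones. Fst, which encodes the activin-binding protein follistatin, had 11.3 CPM (4.14 to 24.6) in high, 79.2 (64.2 to 96.6) in low and 25.1 (21.6 to 29.0) in the others. Tnfaip2 had 18.8 CPM (9.02 to 34.6) in high, 125 (106 to 146) in low and 39.4 (35.0 to 44.2) in the others, and Timp1, an inhibitor of metalloproteinases, 47.0 in high, 197 in low and 82.6 in the others. Both Fst and Tnfaip2 were lower in high than in the other barcodes, but on few UMIs. The intervals of high and other barcodes overlap for Fst and nearly meet for Tnfaip2, so the opposite direction rests on little. Wnt4 and Epcam, by contrast, were at least 2-fold higher than in the others in both high and low barcodes. Wnt4 was at 92.1 CPM in high, 88.2 in low and 34.8 in the others, and Epcam at 246 in high, 137 in low and 50.9 in the others.

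Markers of other cell types were a small part of the UMIs in each set. Leydig markers made up 0.152% of UMIs in high, 0.0946% in low and 0.101% in the other barcodes, with highest single barcodes at 0.337% in high, 0.365% in low and 0.724% in the others, and of 9 with enough UMIs Star was higher in high barcodes (673 CPM in high, 274 in low and 201 in the others), while Lhcgr was at 0 UMIs in high. The Leydig list includes Cyp17a1, Insl3, Hsd3b1 and Cyp11a1, which the gate held under 0.3% of UMIs. Low shares of Leydig markers were therefore in part set by the selection. Myeloid markers made up 0.0103% in high, 0.0294% in low and 0.0268% in the others, with Ptprc at 0 in high and low. Single barcodes reached 0.0532% myeloid UMIs in high, 0.871% in low and 2.53% in the others. Spermatogonial markers made up 0.0528% in high, 0.0845% in low and 0.0612% in the others, and spermatocyte markers 0.0196% in high, 0.0208% in low and 0.0358% in the others. Single barcodes reached 0.341% spermatocyte UMIs in high, 0.180% in low and 0.923% in the others. Such barcodes were kept in the sums. Of 10 spermatid markers 9 were at 0 in high barcodes and 3 in the others. They made up 0.00075% of UMIs in high and 0.0021% in the others. Of 15 stromal, myoid and endothelial markers 9 were at 0 in high barcodes, among them Col1a1, Col3a1 and Pecam1, and 0 in the others. Their share of UMIs was similar, at 0.0150% in high, 0.0196% in low and 0.0188% in the others. The sum of high barcodes is the smallest, so scarce genes reach 0 there more easily. Rete testis and efferent duct markers made up 0.0329% of UMIs in high, 0.0194% in low and 0.0097% in the others. Only 2 of these 16 markers had enough UMIs in the high comparison, Epcam and Cldn3, and both were higher. In high barcodes 7 were at 0 UMIs, Aqp1, Krt19, Krt7, Krt8, Muc1, Pax2 and Pax8, against 5 at 0 in the others. The part of the markers of other cell types in the results was not tested.

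Rule genes lie near each other in places. In RefSeq on GRCm38, Fbxw8 is the only protein-coding gene between Tesc and Hrk on chromosome 5, and had 43.3 CPM in high, 51.4 in low and 47.9 in the others. The next gene after Hrk, Rnft2, had 16.9 CPM in high, 20.4 in low and 29.3 in the others. Wfdc18 lies between Wfdc17 and Wfdc21 on chromosome 11, which had 1 and 0 UMIs in high barcodes. Rasl10a lies within the span of Gas2l1, and how reads in their overlap were counted was not checked. Gas2l1 had 374 CPM in high, 588 in low and 565 in the others.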

How the data were processed

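Whole testes of 1 RAD21L KO and 1 WT mouse of 55 days were profiled by droplet single-cell RNA sequencing. The authors deposited raw UMI counts, genes by barcodes. Cell Ranger 6.1.2 made them, per the file headers. Seurat 4.3 and GRCm39 are named in the submitters' processing notes. The calling of cells is not given in the sources used here. From these counts, UMIs were summed over sets of barcodes and scaled to CPM, UMIs per 1000000 UMIs of the set. A gene was named where it had at least 50 UMIs in the set where it was higher and where its CPM, less 10% of its library level for free RNA, was still at least 2-fold the other, with counts under 3 set to 3. The first 15 in each direction were named, and predicted genes, ribosomal, mitochondrial and haemoglobin genes were left out. Genes chosen outside this rule were named from the lists or after their values were seen. Lists count genes with at least 100 UMIs over both sets. Doublets were scored with Scrublet in Scanpy 1.11.5 (152 of 6409 KO barcodes marked, 2.37%) and not removed. Gated barcodes were clustered again without the 4 genes on 2000 variable genes and 20 components (Leiden, resolution 0.5). The members and lists were chosen with earlier results of these data known, and the division at 12 UMIs after the counts were seen. The naming rule and the intervals for ratios were tested on simulated Poisson sums, without variation between barcodes. Thinning was checked by its totals. The gate, clustering, doublet scoring and motif search were not tested in this way. Some genes that meet these rules are not reported here.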

Additional observations from a re-analysis of the deposited data

How the results depend on the processing

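The number of members (180), of genes at least 2-fold higher (227) and of genes at least 2-fold lower (97) were recomputed under 21 other settings and 5 more chosen after seeing the data. Members numbered 273 with at least 2 UMIs of the 4 genes, 87 with at least 5, 109 where the 4 genes were at least 0.05% of UMIs, 108 among barcodes of 5000 to 12000 UMIs and 71 with Tesc left out of the rule. They numbered 48 as high barcodes, 57 as the cluster made without the 4 genes and 60 with the 4 genes at 0.1% of UMIs. Genes higher were 69 at 5000 to 12000 UMIs, 43 after thinning to 2000 UMIs, 128 with the Sertoli gate at 1.2%, 408 and 114 with a minimum of 20 and 100 UMIs, 44 in low barcodes and 39 in low barcodes outside the cluster. Genes lower moved most: 40 with at least 2 UMIs, 521 with at least 5, 453 at 0.05% of UMIs, 150 after thinning, 62 and 174 with the Sertoli gate at 1.2% and 0.3%, 723 without Tesc, 204 and 63 with 0% and 20% room for free RNA, and 160 and 50 with a minimum of 20 and 100 UMIs. They were 1036 in high barcodes, 1054 in the cluster and 1037 at 0.1% of UMIs. The counts of lower genes moved with which barcodes were members. They also moved where the members stayed the same, with thinning, the room for free RNA and the minimum of UMIs. Of the log2 ratios of 66 genes, 5 changed sign under the 21 settings. After thinning, where 0 or 1 UMI was left in members, these were Map2k6 0.077, Negr1 0.71, Septin12 0.16 and Meiosin 0.58, and at 5000 to 12000 UMIs Rhox5 was 0.17, against -0.27 in all members. Under the 5 added settings, Fst was -1.16 (high), -1.02 (cluster) and -0.83 (0.1% of UMIs), and in low barcodes outside the cluster Phldb2 was -0.23, Mxra8 -0.17 and Tsx 0.012. Rhox5 was 0.20 in low barcodes and 0.25 in those outside the cluster. The cause of a change was not tested. No paired analysis was possible because there was 1 library per genotype.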
